A study of Mus musculus with 5 samples.

Results

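Pressure overload of the heart on a diet with 10 kcal% fat was examined through chromatin immunoprecipitation and sequencing (ChIP-seq) of ACAA2. The comparison used 2 of the 5 samples of the series, chosen by their surgery and diet labels, and all 3885 merged regions of the deposited table. One library came from hearts after transverse aortic constriction (TAC), in which a band narrows the aorta and the left ventricle pumps against raised pressure. The other came from sham-operated hearts. All mice were male C57Bl/6J aged 12 weeks, ate the 10% fat diet for 4 days before surgery and stayed on it for 1 more week. Each library is labelled a pool of 3, so there was 1 library per group, the variation from heart to heart is not known and no difference was tested. The TAC and sham libraries of hearts on a diet with 60 kcal% fat are the only other libraries with columns in the table; a pooled input was not used here. The antibody label names ACAA2, while the extraction text names antibodies against butyrylated and acetylated lysine 9 of histone H3, and the values are described as anti-ACAA2, as the columns are named.

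ACAA2 is the thiolase that performs the last step of mitochondrial fatty acid beta-oxidation, the cleavage that releases acetyl-CoA. Fatty acids are the main fuel of the adult heart, and hearts under pressure overload are known to use less of them and more glucose as the muscle cells enlarge. Acetyl-CoA and other acyl-CoAs are also the donors for acylation of histones, which marks the start sites of active genes. The table measures DNA recovered with the antibody, not RNA.

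Most regions of the table lie at gene starts, so the start-site sequences of regions with a large difference are shown first. The windows are the 250 bases before the RefSeq start (GRCm38.p6, the assembly behind mm10), 5′ to 3′ on the gene's strand. Capitals mark matches to any of 13 motifs searched on both strands: GC box (GGGCGG), ETS (CCGGAAG), NRF1, CRE (TGACGTCA), a short CRE (TGACG, which every CRE contains), E-box (CACGTG), NFY (CCAAT), YY1 (AAGATGG), AP-1 (TGANTCA), ERR (TCAAGGTCA), TATA box (TATAAA), MEF2 and the GATA motif (AGATAA). Higher after TAC were Aagab, an adaptin-binding protein (chr9:63602396-63602645, plus strand), Adprhl2, which removes ADP-ribose from proteins (chr4:126321704-126321953, minus strand), Enthd2, an adaptor protein of vesicle coats (chr11:120098732-120098981, minus strand), and Sertad2, a transcriptional coregulator (chr11:20542916-20543165, plus strand).
Aagab: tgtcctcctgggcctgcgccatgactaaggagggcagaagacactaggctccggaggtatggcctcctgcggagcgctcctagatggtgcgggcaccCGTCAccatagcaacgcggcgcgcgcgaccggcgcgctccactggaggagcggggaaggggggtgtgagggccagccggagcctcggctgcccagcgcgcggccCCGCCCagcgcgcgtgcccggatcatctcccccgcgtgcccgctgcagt
Adprhl2: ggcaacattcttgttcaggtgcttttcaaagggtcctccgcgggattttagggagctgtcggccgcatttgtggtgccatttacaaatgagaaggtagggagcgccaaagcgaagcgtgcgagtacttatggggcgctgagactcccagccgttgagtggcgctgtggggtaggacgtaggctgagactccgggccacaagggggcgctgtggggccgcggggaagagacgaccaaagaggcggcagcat
Enthd2: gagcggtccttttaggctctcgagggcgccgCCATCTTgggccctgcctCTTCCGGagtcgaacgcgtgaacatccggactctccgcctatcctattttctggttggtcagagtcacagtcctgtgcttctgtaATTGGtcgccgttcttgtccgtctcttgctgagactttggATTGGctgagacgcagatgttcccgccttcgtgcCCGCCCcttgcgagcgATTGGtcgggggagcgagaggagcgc
Sertad2: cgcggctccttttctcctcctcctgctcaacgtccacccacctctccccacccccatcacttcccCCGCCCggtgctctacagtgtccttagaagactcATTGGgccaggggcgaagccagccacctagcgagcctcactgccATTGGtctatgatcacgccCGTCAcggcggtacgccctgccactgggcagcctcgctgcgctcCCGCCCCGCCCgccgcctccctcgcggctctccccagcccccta
Lower after TAC were Wdr73, a WD repeat protein (chr7:80901270-80901519, minus strand), Oaz1, the antizyme that limits polyamine synthesis (chr10:80826406-80826655, plus strand), and Dcaf10, a substrate adaptor of a ubiquitin ligase (chr4:45341851-45342100, plus strand).
Wdr73: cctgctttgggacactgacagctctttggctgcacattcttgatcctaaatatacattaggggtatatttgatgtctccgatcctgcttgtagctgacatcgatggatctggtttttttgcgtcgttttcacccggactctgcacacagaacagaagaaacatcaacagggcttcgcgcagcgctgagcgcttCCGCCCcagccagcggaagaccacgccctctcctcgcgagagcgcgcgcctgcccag
Oaz1: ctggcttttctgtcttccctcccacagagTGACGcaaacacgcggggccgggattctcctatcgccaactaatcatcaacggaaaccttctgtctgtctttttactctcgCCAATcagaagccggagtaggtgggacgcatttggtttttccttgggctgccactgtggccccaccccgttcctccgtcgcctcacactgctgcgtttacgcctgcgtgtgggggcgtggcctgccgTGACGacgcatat
Dcaf10: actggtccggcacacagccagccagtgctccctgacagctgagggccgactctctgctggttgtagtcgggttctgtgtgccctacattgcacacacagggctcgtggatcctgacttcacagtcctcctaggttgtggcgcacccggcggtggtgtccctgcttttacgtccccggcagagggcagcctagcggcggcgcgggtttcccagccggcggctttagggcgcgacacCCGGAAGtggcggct
A further 4 were picked for their roles in the heart or the clock after their values were seen. Higher were Rcan1, a feedback inhibitor of the phosphatase calcineurin (chr16:92466170-92466419, minus strand), and Cry1, a repressor of the circadian clock (chr10:85185055-85185304, minus strand). Lower were Ndufa4, a respiratory chain subunit (chr6:11907451-11907700, minus strand), and Srf, the serum response factor of muscle genes (chr17:46556163-46556412, minus strand).
Rcan1: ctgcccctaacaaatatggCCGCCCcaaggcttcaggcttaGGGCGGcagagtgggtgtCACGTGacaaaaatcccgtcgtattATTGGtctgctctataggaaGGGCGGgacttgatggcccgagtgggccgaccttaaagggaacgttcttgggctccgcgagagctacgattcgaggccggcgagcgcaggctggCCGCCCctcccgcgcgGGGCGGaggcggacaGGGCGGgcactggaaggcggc
Cry1: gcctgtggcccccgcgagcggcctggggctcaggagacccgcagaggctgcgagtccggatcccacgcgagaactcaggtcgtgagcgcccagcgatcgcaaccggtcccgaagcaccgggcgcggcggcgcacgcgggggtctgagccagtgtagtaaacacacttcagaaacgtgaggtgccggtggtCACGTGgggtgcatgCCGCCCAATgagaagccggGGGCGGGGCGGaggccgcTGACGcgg
Ndufa4: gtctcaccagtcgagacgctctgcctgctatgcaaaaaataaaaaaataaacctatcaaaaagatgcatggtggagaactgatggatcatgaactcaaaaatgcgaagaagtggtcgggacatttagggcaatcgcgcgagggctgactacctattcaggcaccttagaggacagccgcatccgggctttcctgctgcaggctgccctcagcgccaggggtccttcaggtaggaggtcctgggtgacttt
Srf: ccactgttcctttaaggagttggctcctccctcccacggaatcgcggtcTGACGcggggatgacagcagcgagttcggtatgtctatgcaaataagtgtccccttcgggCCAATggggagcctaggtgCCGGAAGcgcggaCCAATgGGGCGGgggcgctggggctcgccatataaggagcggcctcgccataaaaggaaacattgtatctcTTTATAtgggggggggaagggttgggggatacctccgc

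Among the printed windows the Adprhl2 window, higher after TAC, and the Ndufa4 window, lower after TAC, each hold none of the 13. In the wider set, 2050 regions overlapped the start-site window of an assigned gene in the RefSeq table; 186 of these were at least 2-fold higher after TAC and 124 at least 2-fold lower, or 9.07% and 6.05%. The GC box was in 61.8% of the higher windows (Wilson 95% interval 54.7 to 68.5%) and 61.3% of the lower ones (52.5 to 69.4%), against 65.3% of all 2050 and 32.7% of the 32851 windows in the RefSeq table. The ETS motif was in 20.4% of the higher and 18.5% of the lower windows, against 21.8% of the 2050 and 6.91% of the table. The short CRE was in 25.8% of the higher windows (20.1 to 32.5%) and 34.7% of the lower ones (26.9 to 43.4%), against 36.0% of the 2050 and 17.8% of the table. The AP-1 motif was in 3.23% of the higher and 1.61% of the lower windows, against 3.51% of the 2050 and 6.75% of the table. The windows at regions were thus richer in GC box and ETS letters than start sites at large, and the higher and lower windows had overlapping intervals for each motif named here. Median GC content was 59.4% in the higher and 60.0% in the lower windows, against 60.8% over the 2050 and 52.4% over the table. A match is a description of letters and not a binding site.

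For each region the average signal is the mean number of fragments piled up over it. The difference between the libraries is given as log2(TAC + 1) minus log2(sham + 1), centred on the median over all 3885 regions, which lay at -0.14 before centring. Over the regions the TAC library held an estimated 68963 fragments and the sham library 75313. The median region had a signal of 10.7 and 14.9 fragments in TAC hearts, against 11.8 and 16.3 fragments in sham hearts. On 60% fat diet the median signal was lower, 9.67 in TAC hearts and 7.29 in sham hearts. Signals set side by side across the 4 libraries below are not adjusted for these levels. After centring, 425 regions were at least 2-fold higher after TAC (10.9%) and 324 at least 2-fold lower (8.34%), together 749 (19.3%). The split depends on the centring: without it, 310 regions were at least 2-fold higher and 455 lower, and with the centre set on regions called in both libraries the counts were 334 and 419. The differences ran from -3.62 to 2.82 with an SD over regions of 0.78, and the quartiles lay at -0.51 and 0.55. Beyond 4-fold there were 39 higher and 17 lower regions. The 2-fold limit cuts a continuum, since the members just inside lay at 1.00185 and -1.00004 and those just outside at 0.99665 and -0.99997.

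**Figure D1:**
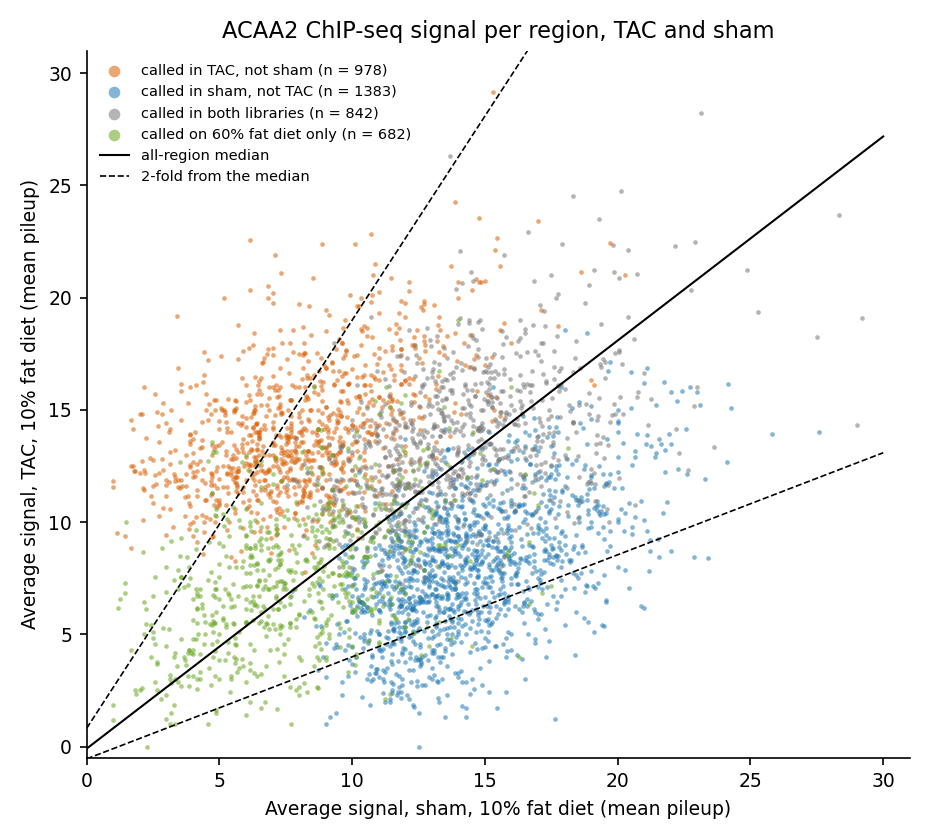
Average signal (mean pileup) of each of the 3885 regions in TAC hearts (vertical axis) and sham hearts (horizontal axis) on 10% fat diet, coloured by the libraries in which the authors called an interval; the solid line is the all-region median and the dashed lines are 2-fold from it. The regions called in TAC and not in sham hearts (978) lie above the line or near it, those called in sham and not in TAC hearts (1383) lie mostly below it, and nearly all of the 842 called in both lie between the dashed lines.

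A region is in the table because the authors called an interval there in at least 1 of the 4 libraries, so the calls select the regions, and the direction of a difference went with the library that carried the call. Of the 425 higher regions, 383 carried a call in the TAC library (90.1%, against 46.8% of all regions). A call in that library alone was carried by 329 (77.4%, against 19.6% of all regions). Of the 324 lower regions, 293 carried a call in the sham library (90.4%, against 57.3% of all regions). A call in that library alone was carried by 261 (80.6%, against 27.5% of all regions). The 842 regions called in both libraries held only 2 that were at least 2-fold higher and 0 lower, around a median of 0.11. The 682 regions called only on 60% fat diet carried no call in either library compared. That choice leaves out regions strong enough to be called in either, so their shares are not those of unselected regions. Of the 682, 42 were at least 2-fold higher (6.16%) and 31 lower (4.55%), with a median of 0.10. None of the 160 regions called in all 4 libraries was beyond 2-fold. A call in both libraries compared needs signal in both, so these 2 sets favour small differences by their choice. Counts of fragments were also small: the median region's 95% counting interval, exact Clopper-Pearson on its fragments without the pseudocount, spanned 2.34 log2 units. Intervals on single regions below are of this kind and cover counting error only.

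Differences were smaller where the signal was stronger. In the quartile of regions with the lowest mean signal, 188 were at least 2-fold higher and 169 lower, with an SD of 1.04. In the quartile with the highest mean signal, 31 were higher and 14 lower, with an SD of 0.51. The median counting interval also narrowed, from 3.39 log2 units in the lowest quartile to 1.73 in the highest, and its part in this trend was not tested. Short regions behaved like weak ones: the shortest quartile held 163 higher and 120 lower regions, and the longest quartile 43 and 25. By distance to the nearest assigned start, the 2118 regions within 250 bp had a median of 0.03 and the 294 regions more than 10000 bp away a median of -0.20 (95% interval of the median -0.29 to -0.07). The far regions held 40 at least 2-fold higher and 57 lower.

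Regions with neither a promoter nor a CpG island stood lower after TAC than regions with both. The 2711 regions with both had a median of 0.05 (0.00 to 0.08), with 9.81% at least 2-fold higher and 5.90% lower. The 525 with neither had a median of -0.25 (-0.35 to -0.12), with 13.0% higher and 18.9% lower. The 497 with a promoter and no CpG island had a median of -0.09 (-0.19 to 0.03), with 15.3% higher and 11.9% lower, and the 152 with a CpG island and no promoter had a median of 0.07 (-0.05 to 0.18). Seen from the other side, 80.5% of the higher regions (76.4 to 84.0%) and 67.6% of the lower regions (62.3 to 72.5%) held a promoter, against 82.6% of all regions. The regions with neither were also weaker, with median signals of 8.20 in TAC hearts and 10.9 in sham hearts, against 11.3 and 12.0 in the regions with both; the part of signal strength and of the calls in this difference was not tested. Over regions of this class called in both libraries the median turned to 0.16. On 60% fat diet the same 525 regions had a median of -0.01.

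**Figure D2:**
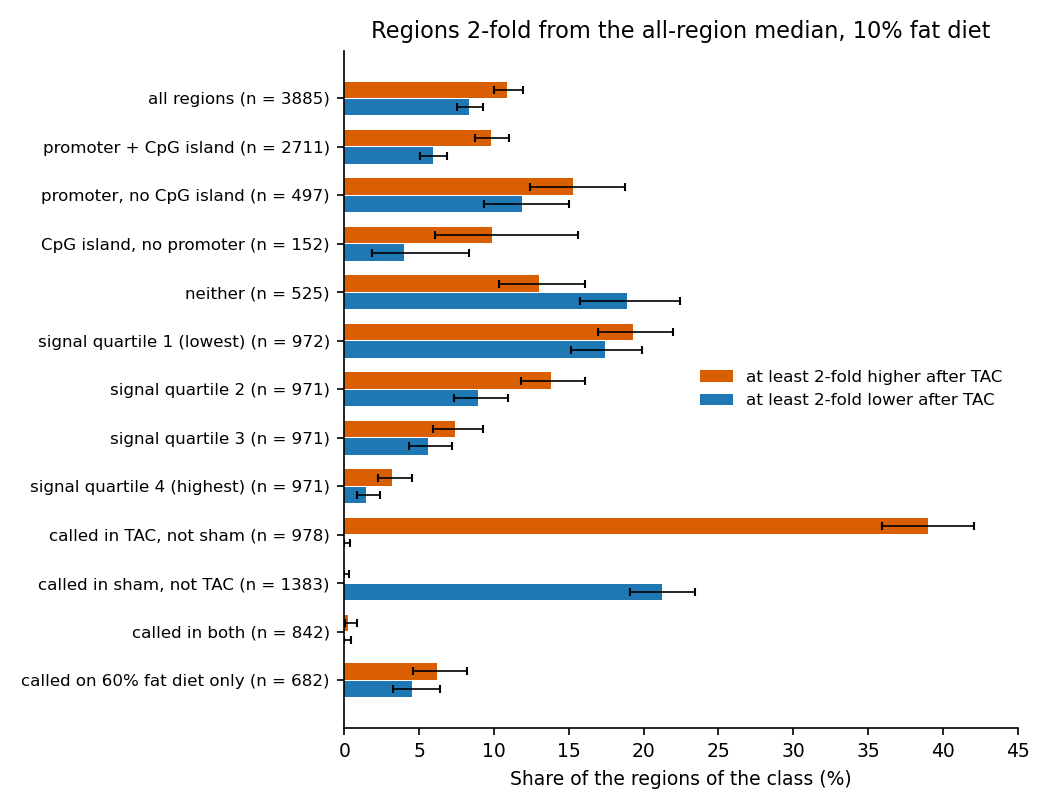
Share of the regions of each class (horizontal axis, %) that were at least 2-fold higher or lower after TAC on 10% fat diet, with Wilson 95% intervals over regions as error bars; orange bars are higher and blue bars lower. The lower share exceeds the higher share in regions with neither promoter nor CpG island (18.9% against 13.0%), and the shares shrink as signal grows. The classes with a call in at least 1 of the 2 libraries show only 1 direction or almost none. Regions called on 60% fat diet only show both, 6.16% higher and 4.55% lower.

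Among regions with a strong signal in at least 1 library (the higher library at or above 15.9, the upper quartile), the 12 highest and 12 lowest were named. At the start of Aagab (chr9:63602429-63602728) the signal was 19.2 in TAC hearts, against 3.40 in sham hearts, a difference of 2.34 (1.18 to 4.47). On 60% fat diet the same region had 11.8 in TAC hearts and 9.40 in sham hearts. Without adjustment for library level, the TAC library on 10% fat diet thus stood above the other 3 libraries at this start site. The region was chosen for a strong signal and a large difference on 10% fat diet, a choice that favours this order. Tle2, a corepressor of the Groucho family, had a region 3675 bp upstream of its start with 20 in TAC hearts and 5.15 in sham hearts, 1.91 (1.07 to 3.26). Arpc3, a subunit of the Arp2/3 complex that nucleates actin filaments, had 16.1 in TAC hearts and 3.57 in sham hearts in a region 9380 bp into the gene, 2.04 (0.57 to 4.58). The other 9 (Hexa, Ppp1r35, Adprhl2, Cdkl1, Slfn5, Enthd2, Ppapdc1b, Fbxl15 and Sertad2) ranged from 1.82 to 2.57. All 12 carried a call in the TAC library on 10% fat diet and in no other library.

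The 12 lowest regions lay at genes of mixed function. Slc25a4, the ADP/ATP carrier of heart mitochondria, had 4.29 in TAC hearts, against 16.0 in sham hearts, in a region 2519 bp from its start (chr8:46208375-46208605), a difference of -1.55 (-3.69 to -0.19). Epas1, the oxygen-regulated transcription factor HIF-2 alpha, had 4.71 in TAC hearts and 17.4 in sham hearts in a region 16241 bp into the gene, -1.55 (-2.98 to -0.66). At both genes sham hearts on 10% fat diet had the highest signal of the 4 libraries, without adjustment for library level. Both regions were chosen for a strong signal on 10% fat diet. On 60% fat diet Slc25a4 had 3.43 in TAC and 1.86 in sham hearts, and Epas1 had 8.36 and 3.21. Oaz1 had 4.00 in TAC hearts and 16.3 in sham hearts at its start, -1.65 (-3.96 to -0.24), and Rnf111, a ubiquitin ligase of transforming growth factor beta (TGF-beta) signalling, had 3.90 and 16.4, -1.69 (-3.60 to -0.55). The region at Ppt2, a lysosomal thioesterase, was the lowest, with 3.00 in TAC hearts and 16.5 in sham hearts, -1.99 (-4.83 to -0.48). The other 7 (Fndc3b, Wdr73, Lrrc24, Ngrn, Tenc1, Hic1 and Dcaf10) lay between -1.79 and -1.49. Oaz1 carried no call in either library on 10% fat diet, and each of the other 11 carried one in the sham library and in no other.

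**Figure D3:**
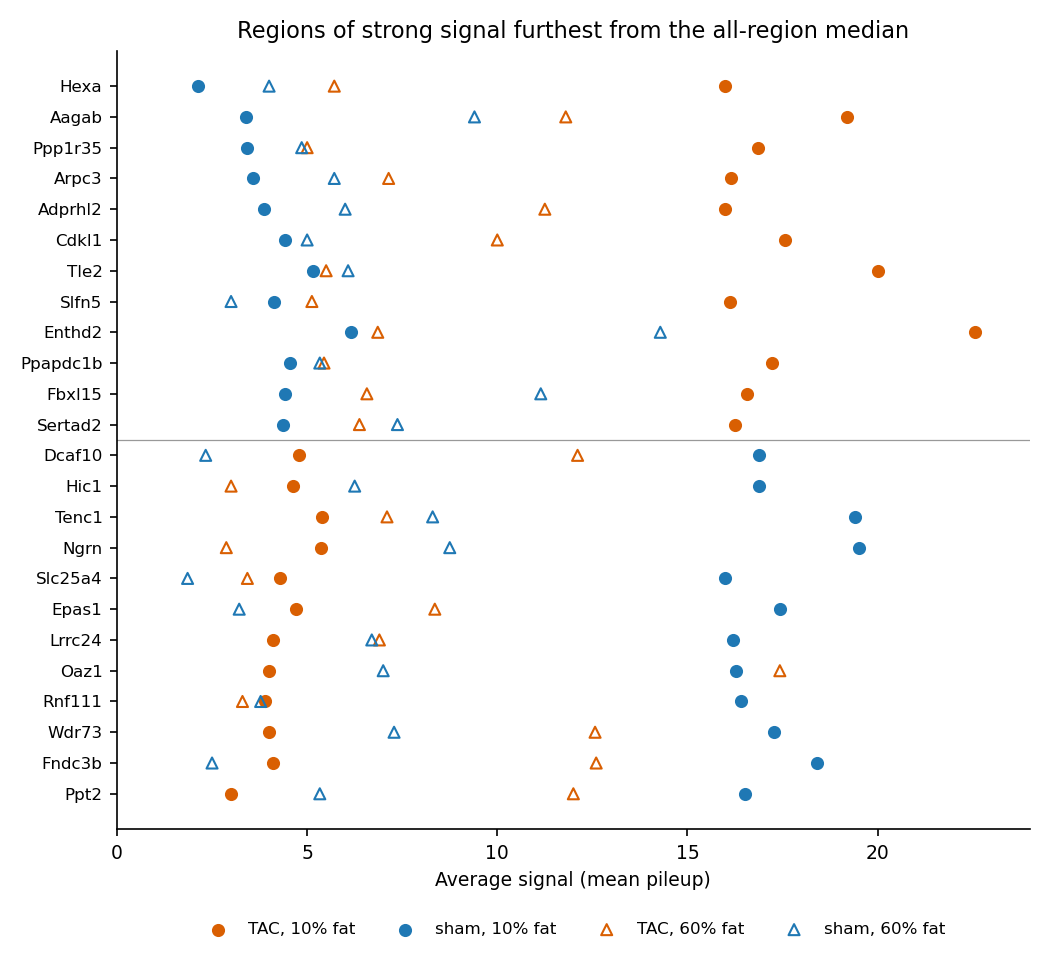
Average signal (horizontal axis, mean pileup) in the 24 named regions with the largest differences among strong regions, 12 higher after TAC above the line and 12 lower below it; filled circles are the 10% fat libraries, open triangles the 60% fat libraries, orange TAC and blue sham. In the upper rows the orange circles lie at 16.0 or above and are the highest of the 4 libraries. In the lower rows the blue circles are so too, except at Oaz1, where TAC hearts on 60% fat diet reached 17.4. Signals are not adjusted for library level, and the regions were chosen for a strong signal on 10% fat diet.

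In the regions called in all 4 libraries, differences were smaller and better counted. These regions needed a call in both libraries compared, a choice that itself favours small differences. Ccnd3, the cyclin D3 of the cell cycle, had 19.1 in TAC hearts and 10.7 in sham hearts in a region 6423 bp into the gene, 0.92 (0.30 to 1.68). A second region 2753 bp upstream of Ccnd3, which the files also assign to Taf8, had 6.55 in TAC hearts and 19.6 in sham hearts, -1.31 (-2.27 to -0.67). Another region, 3381 bp into the gene, lay between them at -0.06, so the regions of Ccnd3 did not share a direction. Hsp90aa1, a chaperone, had 11.9 in TAC hearts and 7.76 in sham hearts at its start, 0.69 (-0.05 to 1.58). Ubb, which encodes ubiquitin, had 14.3 in TAC hearts and 29 in sham hearts upstream of its start, -0.83 (-1.47 to -0.32), while its second region 1084 bp upstream had 10.8 and 12.0, 0.00 (-0.55 to 0.52). Ddx5, an RNA helicase, had 13.3 in TAC hearts and 23.6 in sham hearts over its 1327 bp region, with 79.0 and 140 fragments, -0.64 (-1.10 to -0.28); its other regions, not called in all 4 libraries, lay at -1.39 and -0.20. The small nuclear RNA gene Rn7sk, whose product holds back elongation by RNA polymerase II, had 10.2 in TAC hearts and 17.6 in sham hearts, -0.60 (-1.36 to 0.03).

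Genes with several regions seldom had them all beyond 2-fold on the same side. Of 5129 genes with a region, 1063 had at least 2. In 7 of these every region was at least 2-fold higher and in 11 every region at least 2-fold lower. Another 24 had at least 1 region beyond 2-fold in each direction. Some genes were counted on the same regions: Atp5e with Slmo2 and Inpp5k with Pitpna among the 7, and Neat1 with Frmd8 among the 11. Single regions passed the limit at shares of 10.9% (higher) and 8.34% (lower) of the 3885. Whether the counts of genes exceed what these shares would give was not tested. Of the 836 genes with exactly 2 regions, both lay on the same side of the all-region median in 432 (51.7%). Among genes with every region higher, Adamts6, a secreted metalloprotease, had 9.90 in TAC hearts and 3.90 in sham hearts upstream of its start and 9.50 against 1.12 within the gene. Atp5e, the epsilon subunit of ATP synthase, shares its 2 regions, 8929 and 9279 bp upstream, with Slmo2, with 15.7 in TAC hearts and 4.50 in sham hearts in the first and 6.57 and 1.25 in the second. Among genes with every region lower, Ephb4, a receptor of vessel development, had 3.94 in TAC hearts and 12.2 in sham hearts 594 bp upstream and 5.12 and 15.1 at its start. Heg1, a heart development receptor of endothelium, had 6.00 and 14.8 upstream and 2.17 and 11.8 within the gene. The nuclear RNA Neat1 had 6.29 and 15.4 in 1 region and 7.15 and 18.8 in the other, both also assigned to Frmd8. Neighbouring regions within 10000 bp of each other lay on the same side of the median in 292 of 556 pairs (52.5%), with a Pearson correlation of 0.064 across pairs that come from the same 2 libraries.

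Genes of the hypertrophic programme gave differences in both directions. The counts of list members beyond 2-fold, here and in the lists that follow, stand beside 10.9% higher and 8.34% lower among all regions, and in lists of this size a few regions set the share. List members also entered through the calls, so the direction of a list's regions is not independent of that choice. Calcineurin signals from calcium to the nucleus, and MEF2, SRF and GATA factors drive muscle genes. Of the 26 genes of this list 9 had a region, and of their 16 regions 3 were at least 2-fold higher and 2 lower, with a median of -0.05. Rcan1 had 21.9 in TAC hearts, against 7.09 in sham hearts, 10.7 in TAC hearts on 60% fat diet and 7.46 in sham hearts on 60% fat diet. In these unadjusted signals TAC hearts on 10% fat diet stood above all the others at Rcan1, whose region was named for its large difference on that diet. The difference on 10% fat diet was 1.64 (0.75 to 2.89). Rcan2, a relative of Rcan1, had 11.2 in TAC hearts and 4.17 in sham hearts 204 bp upstream of its start, 1.37 (-0.25 to 3.74), and 9.75 against 15.9 in a region far inside the gene, -0.51 (-1.78 to 0.58). Mef2a had 12.5 in TAC hearts and 1.67 in sham hearts in a region 1095 bp into the gene, 2.48 (0.65 to 6.94), and 17.7 against 20.1 in its promoter region, -0.04 (-0.72 to 0.63). Srf had 5.20 in TAC hearts and 13.3 in sham hearts, -1.07 (-2.65 to 0.06), and Ppp3ca, the catalytic subunit of calcineurin, 8.29 and 16.9, -0.81 (-1.64 to -0.17). Camta1 had 3 regions, at -1.66, -0.98 and -0.31.

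Structural genes of the muscle cell were mostly below the median. Of 36 sarcomere and Z-disc genes 8 had a region, and of their 9 regions 1 was at least 2-fold higher and 4 lower, with a median of -0.98. Ttn, the giant spring protein titin, had 2.43 in TAC hearts and 11.7 in sham hearts in a region 54474 bp into the gene, -1.75 (-5.06 to -0.04). Tpm4, a tropomyosin, had 7.07 in TAC hearts and 19.1 in sham hearts in a region downstream, -1.18 (-2.28 to -0.40). That region lies 25784 bp from the Tpm4 start and is also assigned to Rab8a. Synpo2l, an actin-binding protein of the Z-disc, had 7.83 and 19.0 in a region upstream, -1.04 (-2.16 to -0.20). This one lies 5702 bp from the Synpo2l start and is also assigned to Sec24c. The myosin genes Myh6 and Myh7 share a region with 5.14 in TAC hearts and 12.3 in sham hearts, -0.98 (-2.95 to 0.47). Xirp1, an actin-binding protein of the intercalated disc, went the other way, with 19.7 in TAC hearts and 8.0 in sham hearts downstream of the gene, 1.34 (0.23 to 2.79). Only 2 of these 9 regions, the 2 at Xirp1, lay above the median. Of the 9, 7 carried a call in the sham and not the TAC library, 2 the reverse, and 0 a call in both. The calls select the regions, so the side on which these regions lie is not independent of that choice. The files give a promoter to 4 of the 9, against 82.6% of all regions. The part of the calls and of position in the list's median was not tested. Whole hearts hold several cell types, and fewer cells of a type cannot be told apart from less signal per cell.

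Calcium handling was mixed, with 14 regions at 11 of 32 genes, a median of -0.22, and 2 regions beyond 2-fold on each side. Cacna1c, the pore of the L-type calcium channel, had 2.89 in TAC hearts and 13.2 in sham hearts in a region 56665 bp into the gene, -1.73 (-4.08 to -0.46). Itpr1, an intracellular calcium release channel, had 13.6 in TAC hearts and 4.71 in sham hearts at its start, 1.49 (0.07 to 3.56). Its relative Itpr2 had 15.9 and 8.88 at its start, 0.91 (-0.24 to 2.28), and 6.33 and 17.3 within the gene, -1.18 (-2.93 to 0.09). Of the 19 fetal and wall stress genes 7 had a region; 2 of their 9 regions were at least 2-fold higher and 0 lower, with a median of -0.31. These were Itgb1, the main beta integrin, with 10.3 in TAC hearts and 4.83 in sham hearts, 1.10 (-0.07 to 2.67), and Tln1, the talin that couples integrins to actin, with 13.3 and 4.29 at 541 bp into the gene, 1.57 (0.15 to 3.72). A second Tln1 region, nearer its start, had 12.1 and 16.5, -0.28 (-1.20 to 0.55).

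TGF-beta signalling, which drives scar formation in the loaded heart, had the highest median of the 39 lists of processes and gene families, 0.53 over 11 regions at 10 of 23 genes, with 2 regions at least 2-fold higher and 0 lower. Tgfb3, a ligand, had 12.2 in TAC hearts and 4.00 in sham hearts 521 bp upstream of its start, 1.54 (0.26 to 3.50). That region is also assigned to Ift43. Tgfb1, another ligand, had 20.9 and 11.4 in a region 6206 bp upstream, also assigned to Tmem91 and B9d2, 0.95 (0.05 to 2.02). Of the receptors, Tgfbr1 had 9.36 in TAC hearts and 4.71 in sham hearts, 1.00 (-0.12 to 2.48), just under the 2-fold limit, and Tgfbr2 had 6.25 and 10.2, -0.49 (-1.80 to 0.60). Of the SMAD proteins that carry the signal, Smad2 had 11.7 in TAC hearts and 4.46 in sham hearts, 1.36 (0.20 to 3.05), while Smad3 had 11.4 and 17.6, -0.45 (-1.66 to 0.62). Smad7, the inhibitory member, had 14.3 and 10.7, 0.53 (-0.28 to 1.41). Of these 11 regions 6 were above the all-region median and 5 below it. A call in the TAC and not the sham library was carried by 6, the reverse by 5, and a call in both by 0. Over the regions assigned to exactly 1 gene the list's median turned to -0.45. Among growth factor receptors and adaptors (10 regions, median 0.28, 1 higher and 2 lower), Frs2, an adaptor of fibroblast growth factor receptors, had 14.2 in TAC hearts and 6.27 in sham hearts, 1.20 (0.19 to 2.54). The 2 lower members were receptors, Fgfr1, with 2.57 in TAC hearts and 14.6 in sham hearts at its start, -1.99 (-4.95 to -0.48), and Kdr, at -2.07.

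Fuel genes did not move as a block. For fatty acid uptake and activation, 4 of 15 genes had a region; of 10 regions 0 were at least 2-fold higher and 3 lower, with a median of -0.59, which turned to 0.49 over regions whose higher library reached the median. All 3 lie inside Cd36, the fatty acid transporter, which has 5 regions. The signals at Cd36 were 1.5, 1.00, 2.75, 6.22 and 6.83 in TAC hearts, against 12.5, 9.0, 12.8, 10.6 and 5.33 in sham hearts, with differences of -2.30, -2.18, -1.74, -0.54 and 0.44. The 3 regions beyond 2-fold lie 52713 bp or more into the gene, and the one above the median lies 2579 bp from the start. Acsl1, which activates fatty acids, had 5.33 in TAC hearts and 12.0 in sham hearts, -0.90 (-2.89 to 0.59). In the carnitine shuttle, Cpt1b, the muscle carnitine palmitoyltransferase that admits fatty acids to mitochondria, shares a region with Chkb, which had 17.1 in TAC hearts and 6.64 in sham hearts, 1.38 (0.57 to 2.53). Mlycd, which removes the malonyl-CoA that inhibits this step, had 6.64 and 15.4, -0.96 (-2.11 to -0.11). The beta-oxidation enzymes (9 of 22 genes, 8 regions) had a median of -0.29 with 0 regions at least 2-fold higher and 1 lower. That one was Etfa, which passes electrons on from the acyl-CoA dehydrogenases, with 4.30 in TAC hearts and 13.1 in sham hearts, -1.27 (-2.99 to -0.15). Hadha and Hadhb, the subunits of the trifunctional protein, share a region with 14.1 in TAC hearts and 11.1 in sham hearts, 0.46 (-0.37 to 1.35).

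On the glucose side 4 of 15 regions were at least 2-fold higher and 1 lower (26.7% and 6.67%, against 10.9% and 8.34% of all regions), around a median of -0.03. Gapdh had 17.8 in TAC hearts and 7.0 in sham hearts at its start, 1.37 (0.44 to 2.61). Pkm, the pyruvate kinase, had 17.5 and 8.18 at its start, 1.15 (0.26 to 2.29). Pfkfb2, which makes the activator of phosphofructokinase, had 15.0 and 6.29 in a region 11791 bp into the gene, 1.27 (0.49 to 2.35). That region is also assigned to Yod1. The remaining higher region, downstream of Tpi1 and 5012 bp from its start, is also assigned to Spsb2 and Usp5. Aldoa, the aldolase of muscle, had 7.75 in TAC hearts and 18.6 in sham hearts in a region downstream, -1.03 (-2.55 to 0.15). It lies 7919 bp from the Aldoa start and is also assigned to Tbx6 and Ppp4c. In the step that links glycolysis to the tricarboxylic acid (TCA) cycle, Dlat, a subunit of pyruvate dehydrogenase, had 2.31 in TAC hearts and 11.7 in sham hearts near its start, -1.80 (-4.14 to -0.67). Pdk2, a kinase that switches that enzyme off, had 5.29 and 13.6 in 1 region, -1.08 (-3.06 to 0.36), and 11.9 and 10.1 in another, 0.36 (-0.49 to 1.25). Got2, the mitochondrial aspartate aminotransferase, had 12.8 in TAC hearts and 2.83 in sham hearts 1182 bp into the gene, 1.99 (0.33 to 5.02), and Sdhb, a subunit of succinate dehydrogenase, had 4.64 and 14.6 near its start, -1.33 (-2.94 to -0.28). A second Sdhb region, 3238 bp upstream, went the other way, with 10.2 in TAC hearts and 4.5 in sham hearts, 1.17 (-0.37 to 3.28). Over the 21 regions of pyruvate entry and the TCA cycle 3 were higher and 3 lower, with a median of 0.19.

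Genes of the respiratory chain and of mitochondrial protein synthesis also split. Over 55 regions at oxidative phosphorylation genes, 5 were at least 2-fold higher and 6 lower, with a median of -0.05. Ndufa4 had 5.50 in TAC hearts and 16.5 in sham hearts at its start, -1.29 (-2.33 to -0.63). Atp5g1, a subunit of the ATP synthase rotor, had 8.40 and 23.4, -1.24 (-2.42 to -0.36), the lowest difference among the 10% of regions with the strongest mean signal; a second region downstream lay at -0.07. Ndufv2, a subunit of complex I, is 1 of several genes assigned to a region 24022 bp from its start with 12.6 in TAC hearts and 3.14 in sham hearts, 1.85 (0.24 to 4.61). Of 45 regions at mitochondrial ribosomal protein genes 6 were higher and 4 lower, with a median of -0.18. Mrpl48 has regions in both sets, with 15.2 in TAC hearts and 4.62 in sham hearts at 300 bp into the gene, 1.67 (0.43 to 3.55), 6.71 and 17.9 at 16671 bp, -1.15 (-2.78 to 0.05), and 19.8 and 7.0 at 24787 bp, 1.51 (0.51 to 2.89). The cytosolic ribosomal protein genes had 3 higher and 7 lower of 61 regions, with a median of 0.07. One of the 2 strongest of them, at Rps26, had 23.7 in TAC hearts and 28.3 in sham hearts, -0.11.

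Regulators of transcription and chromatin were spread in the same way. Acetyl-CoA supply and acetyltransferase genes (12 regions, median 0.15) had 2 regions higher and 1 lower, both higher ones at Ep300, a histone acetyltransferase, with 12.8 and 14.6 in TAC hearts, against 2.5 and 1.67 in sham hearts. Its close relative Crebbp had 8.0 in TAC hearts and 14.1 in sham hearts, -0.61 (-2.12 to 0.65). None of the 5 regions at deacetylase genes was beyond 2-fold, and their median was -0.50. Sirt3, the mitochondrial deacetylase, shares a region with Psmd13 that had 9.43 in TAC hearts and 17.3 in sham hearts, -0.67 (-2.09 to 0.52), and Hdac5, a deacetylase that restrains MEF2, had 8.22 and 14.9, -0.65 (-1.92 to 0.40). Of the 52 regions at chromatin remodellers and methyltransferases 5 were higher and 3 lower, with a median of -0.16. Arid1a, a subunit of SWI/SNF remodellers, had 4 regions with 2.88, 4.40, 5.56 and 9.10 in TAC hearts, against 12.2, 11.9, 12.4 and 16.0 in sham hearts, with differences of -1.63, -1.12, -0.90 and -0.61. Among 20 regions at histone genes 0 were higher and 1 lower, with a median of -0.41. The 99 regions at zinc finger genes named Zfp had 13 higher and 6 lower (13.1% and 6.06%, near the 10.9% and 8.34% of all regions), with a median of 0.23, and the 48 at splicing factor genes 6 higher and 1 lower, with a median of 0.02. Rbm20, the splicing factor that controls titin isoforms, had 11.1 in TAC hearts and 2.43 in sham hearts at its start, 1.96 (0.33 to 5.08).

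The circadian clock list had 30 regions at 13 of 22 genes, a median of -0.24, 1 region at least 2-fold higher and 3 lower. Cry1 had 16.0 in TAC hearts and 7.0 in sham hearts at its start, 1.22 (0.30 to 2.45), and Bhlhe41, another repressor of the clock, had 3.10 and 12.9 downstream, -1.62 (-3.77 to -0.41). Nr1d1, the nuclear receptor REV-ERB alpha, has 5 regions, 4 of which the files also assign to Thra, the gene on the opposite strand. Their signals in TAC hearts were 5.71, 7.06, 9.30, 12.5 and 7.42, against 18.7, 20.4, 15.9, 19.3 and 6.50 in sham hearts, with differences of -1.42, -1.27, -0.58, -0.45 and 0.30. The 2 regions beyond 2-fold lie 1278 and 1928 bp into the gene, and the region 14 bp from the start was within 2-fold. Per1 has 6 regions, all at or below -0.01, the lowest at -0.53 with 13.1 in TAC hearts and 21.4 in sham hearts. The labels give no time of day for taking the hearts.

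Genes of stress and immediate early responses showed the same scatter within single loci. Ier2 has 4 regions; the one at its start had 4.36 in TAC hearts and 14.7 in sham hearts, -1.42 (-2.88 to -0.51), and one 1199 bp upstream had 15.4 and 6.14, 1.34 (0.02 to 3.12), while the others lay at 0.47 and 0.75. Jun had 15.0 in TAC hearts and 5.56 in sham hearts within the gene, 1.42 (0.30 to 3.01), and 12.8 and 15.5 at its start, -0.12 (-0.94 to 0.65). Hmox1, the heme oxygenase of the oxidative stress response, had 4.38 and 13.5 at its start, -1.29 (-3.39 to 0.10). Ppp1r15a, which reverses the integrated stress response, had 3.77 in TAC hearts and 13.3 in sham hearts downstream, -1.45 (-3.19 to -0.39), and 14.0 and 15.2 near its start, 0.03 (-1.17 to 1.20). The translation factors had 2 higher and 5 lower of 36 regions, with a median of -0.29; the lowest was at Eif4a2, a helicase of translation initiation, with 2.86 in TAC hearts and 14.3 in sham hearts, -1.85 (-4.66 to -0.34). That region lies 975 bp into Eif4a2, and the one 139 bp into it, called in all 4 libraries, had 19.4 and 17.2, 0.30 (-0.40 to 1.02). Of 24 regions at autophagy and lysosome genes 4 were higher and 2 lower, with a median of 0.10. Map1lc3b, the autophagosome protein LC3B, had 15.0 in TAC hearts and 4.50 in sham hearts downstream, 1.68 (0.38 to 3.65), beside 0.60 and 0.54 in its other regions, and Tfeb, the factor that drives lysosomal genes, had 6.71 and 17.6 at its start, -1.13 (-2.80 to 0.11).

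**Figure D4:**
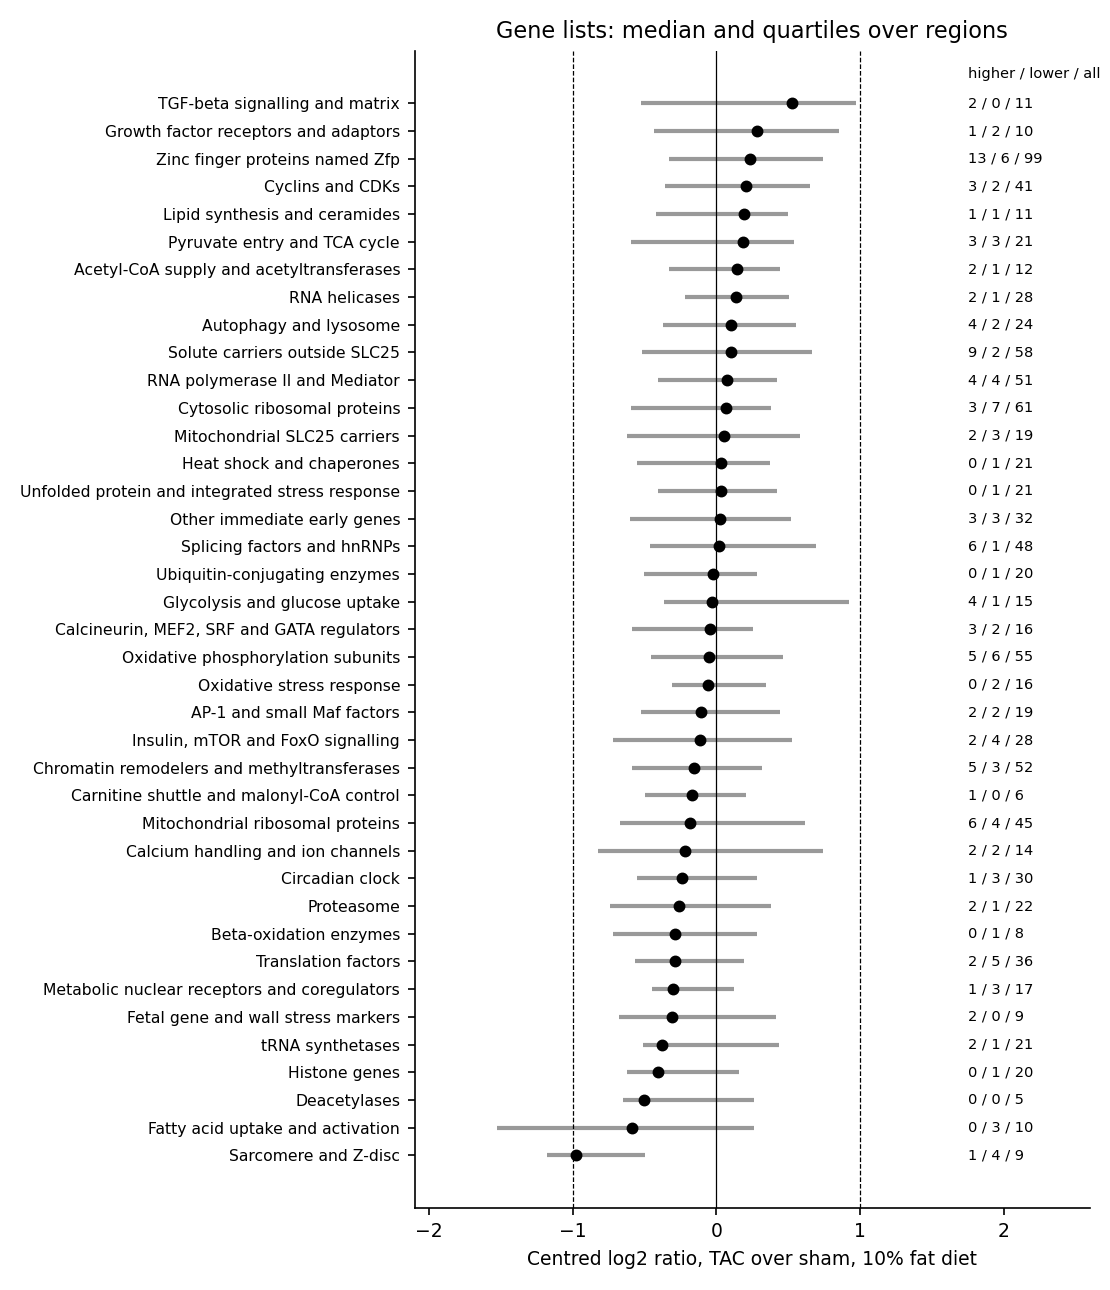
Centred log2 difference, TAC over sham hearts on 10% fat diet (horizontal axis), for 39 gene lists; points are the median over a list's regions, bars run between the quartiles, and the numbers give regions at least 2-fold higher, at least 2-fold lower and all regions. The medians run from -0.98 for the 9 sarcomere and Z-disc regions to 0.53 for the 11 TGF-beta regions, and most quartile bars cross 0.

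Cell type markers seldom had a region. Of 12 cardiomyocyte genes 3 had one (Myh6, Ttn and Pln), with differences of -0.98, -1.75 and 0.25. Of 10 fibroblast genes 1 had one, the intermediate filament gene Vim, with 15.1 in TAC hearts and 5.64 in sham hearts, 1.41 (0.54 to 2.68). Of 10 endothelial genes 1 had one, the growth factor receptor Kdr, with 2.33 and 14.4 in a region 44668 bp into the gene, -2.07 (-5.30 to -0.52). Of 8 smooth muscle genes Cnn1 had one, at -0.91, and of 6 adipocyte genes Fabp4 had one, at 0.14. Of 10 macrophage and leukocyte genes Cd68 had 3 regions, all shared with Eif4a1, at -0.51, -0.24 and 0.45. Their part in the differences above was not tested.

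The surgery difference on 60% fat diet rests on 2 other libraries and was compared region by region. On that diet 272 regions were at least 2-fold higher (7%) and 300 lower (7.72%) after TAC. The differences on the 2 diets were nearly unrelated: across the 3885 regions, which share their libraries and are not independent, Pearson's r was 0.035 and Spearman's rho 0.030, and 50.9% of regions had the same sign. In the quartile with the highest signal r was 0.009, and in the 160 regions called in all 4 libraries it was -0.001. On 10% fat diet the SD of the differences in these sets was 0.51 and 0.36. Their median counting intervals spanned 1.73 and 1.36 log2 units. With a spread this near the counting error, these sets cannot show whether strong regions are more closely related. At least 2-fold higher on both diets were 34 regions, or 8% of the list on 10% fat diet and 12.5% of the list on 60% fat diet. At least 2-fold lower on both were 39, or 12% and 13% of the lists. The opposite way on the 2 diets were 31 and 23 regions. The 425 regions higher on 10% fat diet had a median of 0.03 on 60% fat diet, and the 324 lower ones a median of -0.02.

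**Figure D5:**
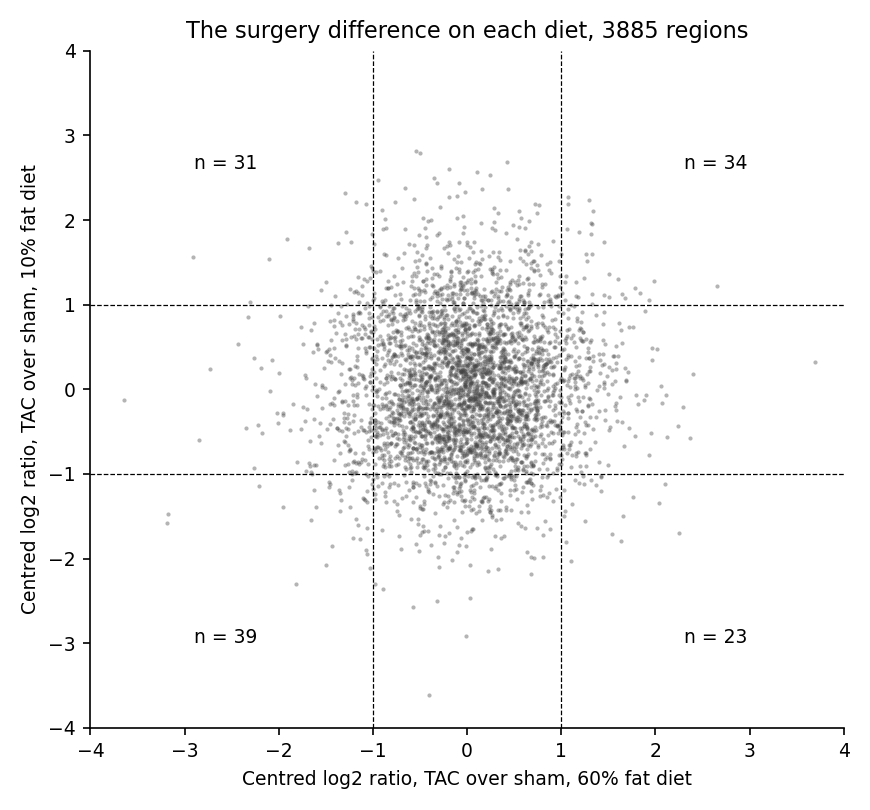
Centred log2 difference of TAC over sham hearts on 10% fat diet (vertical axis) and on 60% fat diet (horizontal axis) for the 3885 regions, with dashed lines at 2-fold. The cloud is round (Pearson's r 0.035), with 34 regions higher on both diets, 39 lower on both, and 31 and 23 in the corners with opposite directions.

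The named regions with the same direction on both diets were chosen by the size of the smaller of their 2 differences. Nod1, a sensor of bacterial peptides, had 13.9 in TAC hearts and 3.90 in sham hearts on 10% fat diet, and 7.60 in TAC hearts and 1.5 in sham hearts on 60% fat diet. Slc25a30, a mitochondrial carrier, had 12.4 in TAC hearts and 3.89 in sham hearts on 10% fat diet, and 11.2 and 2.89 on 60% fat diet. At these regions each TAC library stood above each sham library, with differences of 1.74 and 1.60 on 10% fat diet and 1.46 and 1.33 on 60% fat diet; a second Slc25a30 region, nearer the start, lay at 0.05 on 10% fat diet. Corin, the heart protease that activates natriuretic peptides, had 2.14 in TAC hearts and 11.4 in sham hearts on 10% fat diet in a region 92500 bp into the gene, and 1.57 and 4.57 on 60% fat diet, -1.85 and -1.44. Ngrn, a mitochondrial ribosome assembly factor, had 5.38 and 19.5 on 10% fat diet and 2.88 and 8.75 on 60% fat diet, -1.55 and -1.65. The others of this set were Atxn1, Zhx3 and Mgat1, higher on both diets, and Ccdc91, Nuak2 and Slco3a1, lower on both. Regions that differed the opposite way on the 2 diets included Enthd2, with 22.6 in TAC hearts and 6.14 in sham hearts on 10% fat diet, against 6.86 in TAC hearts and 14.3 in sham hearts on 60% fat diet. At Dlat the 4 signals were 2.31 in TAC hearts and 11.7 in sham hearts on 10% fat diet, and 10.9 in TAC hearts and 3.62 in sham hearts on 60% fat diet. Whether the diets differ at these regions was not tested, since each signal is that of 1 library.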

How the data were processed

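Anti-ACAA2 ChIP-seq signal was compared between TAC and sham hearts on 10% fat diet, 1 library each, and set beside the 60% fat diet pair. BWA, SICER and the mm10 build are named per the submitters' processing notes; versions, read filters and cutoffs were not given in the sources used here. Deposited regions, 3885 in number, were merged from intervals called per library and carry the average and the peak signal of each library, which the authors give as fragment pileup (coverage); peak values are whole numbers. The authors' log2 ratios in the deposited table equal the ratio of average signals without a pseudocount. The deposited MaxTags score equals average signal times length over 224 in the higher library, and this factor gave the fragment estimates. Coordinates are as deposited; whether starts count from 0 or 1 is not given.

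Average signals were compared as log2(value + 1), centred on the all-region median. With 1 library per group no test was possible and differences are described by size, at a limit of 2-fold. Intervals (95%) are exact Clopper-Pearson for fragments, Wilson for shares and order-statistic for medians, and cover counting or sampling error only. The named regions were the 12 highest and 12 lowest with a strong signal, 5 each way among regions called in all 4 libraries, genes with every region beyond 2-fold, the strongest and most different members of each of 45 gene lists, 5 each way alike on both diets, and 5 each way in the top 10% of signal. Members and lists were chosen with earlier results of these data known. Sequences were taken from RefSeq windows overlapping a region by at least 100 bases, and 4 of them were chosen after their values were seen; 5014 of 5134 gene symbols matched RefSeq. The alternatives were other centrings, pseudocounts of 0.5 and 2, peak signal, and subsets by signal, call, gene assignment and chromosome. The script was checked on simulated data. Python 3.11.15, numpy 2.4.6, pandas 2.3.3, scipy 1.17.1 and matplotlib 3.10.9 were used.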

Additional observations from a re-analysis of the deposited data

Results flagged for a closer look

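Some regions differed in opposite directions after TAC on the 2 diets. There were 31 regions at least 2-fold higher on 10% fat diet and at least 2-fold lower on 60% fat diet, and 23 the other way round. These were 7.29% of the regions higher and 7.1% of those lower on 10% fat diet, near the shares of all regions that were lower (7.72%) and higher (7%) on 60% fat diet. Among named regions, Enthd2 had a log2 difference of 1.86 on 10% fat diet and -1.28 on 60% fat diet, and Fbxl15 had 1.83 and -1.01. A region downstream of Tpi1, the triose phosphate isomerase of glycolysis, had 1.16 on 10% fat diet and -1.18 on 60% fat diet. It lies 5012 bp from the Tpi1 start and is also assigned to Spsb2 and Usp5. Dlat, of pyruvate dehydrogenase, had -1.80 on 10% fat diet and 1.05 on 60% fat diet, and the muscle transcription factor Srf had -1.07 and 1.15. A region downstream of Keap1, the sensor of oxidative stress, had -1.44 on 10% fat diet and 1.04 on 60% fat diet. It lies 18247 bp from the Keap1 start and is also assigned to Pde4a and Gm16754. Fndc3b, in a region 79022 bp into the gene, had -1.79 and 1.63, and Dcaf10 had -1.49 and 1.65. With 1 library per group the difference between the diets was not tested.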

How the results depend on the processing

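The count of regions at least 2-fold higher was 425, and it came to 214 of 1960 where the higher library reached the median, 2 of 842 called in both libraries, 95 of 1737 called on 60% fat diet and 211 of 1715 with exactly 1 gene. The count at least 2-fold lower was 324, and the same subsets gave 170, 0, 63 and 158, with 183 of 2891 within 1000 bp of a start; each subset holds fewer regions by construction. The 34 regions higher on both diets became 53 without centring, 19 with a pseudocount of 2 and 10 where the higher library reached the median. The 39 lower on both became 19 with a pseudocount of 2, 21 with peak signal and 19 where the higher library reached the median; the cause was not tested. Higher regions were 56.7% of those beyond 2-fold, 40.5% without centring (310 higher, 455 lower) and 44.4% centred on regions called in both libraries (334 and 419). Of 190 named regions beyond 2-fold, 128 stayed beyond it the same way under all alternatives of centring, pseudocount and peak signal, and 0 of these 190 reversed. Of 602 comparisons of list and class medians 23 left the interval of the main median. A list median at least 0.25 from 0 changed sign 16 times, each time in a subset of the regions: fatty acid uptake, beta-oxidation, metabolic nuclear receptors, deacetylases, histone genes, TGF-beta, growth factor receptors, proteasome, translation factors and tRNA synthetases. No paired analysis was possible because each group has 1 library and no replicate number, and for the same reason no library could be left out in turn. Depth limits single regions: the median region held 14.9 fragments in TAC hearts and 16.3 in sham hearts.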
